A study of Homo sapiens with 4 samples.

Results

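KLRC1 and 9 genes of natural killer cell recognition were followed in TPC1 cells, an established papillary thyroid cancer cell line, with and without overexpression of INAVA. The genes were looked up by symbol in the deposited expression table. They comprised the receptor genes KLRC1, KLRC2 and KLRC3, the ligand gene HLA-E, the stress ligand genes MICA, MICB, ULBP1, ULBP2 and ULBP3, and PVR. Of these 10 genes, 7 were listed among the 13165 genes of the table, and KLRC2, KLRC3 and MICB were not listed. KLRC1 was chosen by its measured values, the far higher FPKM in the INAVA-overexpressing cells, so that difference is given as a description and supports nothing. The other genes were chosen as its relatives or as the ligands that natural killer cells read on tumour cells.

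TPC1-Vector cells carried the empty vector, and TPC1-INAVA cells carried the same vector with INAVA, which the labels call C1orf106. By the study's methods, the construct was delivered by retroviral infection, whereas the labels speak of transfection. Puromycin at 0.5 μg/mL was kept on both for 2 weeks to leave stably expressing cells, and RNA was sequenced in 2 libraries per group. Nothing states whether the libraries of a group came from separate cultures. The comparison rests on 1 cell line, in which the added INAVA was expressed from the vector.

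The deposited table gave 1 value per gene and group. The unit was FPKM, which scales fragment counts to the length of the transcript and to the mapped fragments of a library. The libraries of a group had therefore been combined, so no value has an SD, no difference has a replicate check, and no test could be run. How many reads lie behind a value is unknown. Because of the scaling to length, levels of different genes can be set side by side. Differences are given as log2(FPKM + 0.5), TPC1-INAVA minus TPC1-Vector, which understates the difference of weakly expressed genes. A gene was counted as past the fold when this scale gave at least 1.5-fold, a log2 difference of 0.58. The count was made over the 12305 genes whose mean over the groups reached 0.5 FPKM, called the genes past the filter. Among these genes, 2.24% were at least 1.5-fold higher in TPC1-INAVA and 1.45% at least 1.5-fold lower, and the median log2 difference was 0.0033. The overexpressed gene checked the labels, since C1orf106 stood at 7.96 FPKM in the vector cells and 123 FPKM in the INAVA cells. The table also held small RNAs at extreme values, such as SNORA57 at 1.57e+06 FPKM in TPC1-Vector. Nevertheless, the median ratio of the groups over genes at 1 FPKM or more in both was 1.002.

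Natural killer cells weigh inhibitory against activating signals from a target cell. NKG2A, the product of KLRC1, pairs with CD94 (KLRD1) and sends an inhibitory signal when it binds HLA-E, whereas NKG2C (KLRC2) and NKG2E (KLRC3) pair with CD94 to form activating receptors. MIC and ULBP proteins, which cells display under stress or transformation, are ligands of the activating receptor NKG2D. PVR (CD155) is bound by the activating receptor DNAM-1 and by the inhibitory receptors TIGIT and CD96. KLRC1 is normally a gene of natural killer cells and some T cells, while the ligands are genes of the target cell.

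A sequence feature that sets the inhibitory receptor apart from its relatives lies at the start of the coding sequence. This start is shown for KLRC1 and its relatives because only KLRC1 was listed. The first 13 codons of each gene were read from GENCODE release 29 transcripts on GRCh38, all on the minus strand of chromosome 12. Capitals mark codons 6 to 11 of KLRC1, which encode its first immunoreceptor tyrosine-based inhibitory motif.
KLRC1 (chr12:10451118-10451156): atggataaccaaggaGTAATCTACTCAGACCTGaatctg
KLRC2 (chr12:10435948-10435986): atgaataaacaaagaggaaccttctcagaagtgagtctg
KLRC3 (chr12:10420512-10420550): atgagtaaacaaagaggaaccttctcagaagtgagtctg
KLRC4 (chr12:10409537-10409575): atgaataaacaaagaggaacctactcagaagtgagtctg
The second motif of KLRC1 takes up codons 38 to 43, shown in capitals, and lies in the same exon, exon 3 of the transcript.
KLRC1 (chr12:10451028-10451057): actgaacaggaaATAACCTATGCGGAATTA
Translated over the whole coding sequence, KLRC1 held 2 matches to the motif, and KLRC2, KLRC3 and KLRC4 held 0 each. The motif was searched as isoleucine, leucine or valine, then any residue, tyrosine, any pair of residues, and leucine or valine.

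Further into the gene KLRC1 shares stretches with its relatives, which bears on how reads of KLRC1 and of KLRC2 can be told apart. Over 690 aligned coding bases, KLRC1 and KLRC2 were 88.6% identical, and KLRC1 and KLRC3 were 86.6% identical. KLRC2 and KLRC3 were closer to each other, at 96.4%. The longest run shared without a difference by KLRC1 and KLRC2 was 105 bases, from coding base 394 to 498 of KLRC1 in exons 6 and 7, spliced from chr12:10447624-10449332.
KLRC1 and KLRC2: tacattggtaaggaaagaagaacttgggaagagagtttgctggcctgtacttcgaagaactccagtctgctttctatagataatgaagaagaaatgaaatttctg
Of 2096 windows of 50 bases along the KLRC1 transcripts, 309 (14.7%) also occurred in KLRC2 transcripts, and no window was shared with another gene that KLRC2 did not share as well. With windows of 100 bases, 5.06% were shared. Most of the KLRC1 sequence was thus distinct at these lengths, while KLRC2 and KLRC3 shared 50.3% and 63.9% of their windows of 50 bases with other genes. The annotated genes themselves overlap by 37 bases, and KLRC3, KLRC2 and KLRC1 together take up 42.4 kb. The read length and the treatment of reads that match several genes are not given in the sources used here, and their part in the KLRC1 value was not tested.

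KLRC1 (chr12:10442264-10454685, hg38) was at 0.173 FPKM in the vector cells and 4.53 FPKM in the INAVA cells, a ratio of 26.2 and a log2 difference of 2.90. The level thus lay near the bottom of the table in the vector cells, above 0.699% of the 13165 listed genes, and above 33.1% of them in the INAVA cells. Only 4 of the 12305 genes had a larger log2 difference: SLPI, C1orf106 and the small nuclear RNA genes RNVU1-4 and RNVU1-20, both of which were listed at 0 in TPC1-Vector. These are the values for which KLRC1 was chosen, and it passed the filter through its value in the INAVA cells alone.

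Among 11598 genes over 1 FPKM in the higher group with a finite ratio, those listed at 0 in the vector cells being left out, KLRC1 had the third largest ratio of deposited values, and not the largest. SLPI, a secreted protease inhibitor, was at 0.162 FPKM in the vector cells and 9.74 FPKM in the INAVA cells, a ratio of 60.2. PRR4, a proline-rich secreted protein, was at 0.0192 and 1.02 FPKM, a ratio of 53.0, and lay just above the level of 1 FPKM. The genes next below KLRC1 were SLMO2-ATP5E (0.0801 and 1.35 FPKM), C1orf106 itself, with a ratio of 15.4, and the cytokine gene LTB (0.146 and 1.51 FPKM). After these came the interferon-induced gene TRIM22, with a ratio of 9.35, and the gelatinase MMP9, with a ratio of 7.94. NOMO2 had a larger ratio than any of them, 127, but at 0.596 FPKM in TPC1-INAVA it stayed under 1 FPKM. All of these ratios except that of C1orf106 divide by a value under 0.2 FPKM, where the error of a single deposited value cannot be estimated.

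The partner of NKG2A was listed, and its activating relatives had no value. KLRD1, which encodes CD94, was at 0.385 FPKM in the vector cells and 0.612 FPKM in the INAVA cells, and its mean of 0.499 FPKM fell just under the filter. KLRC1 was therefore at 0.449 times the level of KLRD1 in the vector cells and at 7.40 times in the INAVA cells. Of the 8 genes of the list of NKG2 receptors and partners, KLRC1 and KLRD1 were the 2 listed. KLRC2, KLRC3, KLRC4, KLRK1 (NKG2D) and the signalling adaptors HCST (DAP10) and TYROBP (DAP12) were not listed. An unlisted gene is not shown to be at 0, since the table gives no value for it. The lowest value in the higher group of any listed gene was 0.278 FPKM.

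Natural killer and T cell markers were read beside KLRC1, a gene that these cells normally express. Of 22 markers, 20 were not listed, among them NKG7, GNLY, PRF1, GZMB, PTPRC (CD45), CD3E and NCR1. The 2 listed were KLRD1 and NCAM1 (CD56), an adhesion molecule that other cells also make, at 0.843 and 1.31 FPKM. Their summed level was 1.23 FPKM in the vector cells and 1.92 FPKM in the INAVA cells, and the part of other cells in the KLRC1 value was not tested. In RNA from whole cultures, more cells with KLRC1 RNA cannot be told apart from more KLRC1 RNA per cell.

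The thyroid label rested on few markers. The thyroid transcription factor genes PAX8 (60.1 and 55.7 FPKM) and FOXE1 (5.26 and 5.89 FPKM) were listed, whereas TG, TSHR and NKX2-1, which mark differentiated thyroid cells, were not, nor were the epithelial genes EPCAM, CDH1 and KRT19. KRT7 was at 1.97 and 2.01 FPKM. Among the 5 listed markers, 1 was at least 1.5-fold higher and 1 at least 1.5-fold lower, beside 2.24% and 1.45% of all genes. KRT18 was at 140 FPKM in the vector cells and 212 FPKM in the INAVA cells, and KRT8 at 23.4 and 10.5 FPKM. KRT18, with a log2 difference of 0.59, lay just past the fold, and no marker was higher past it after quantile normalization. These keratin genes share 1 listed interval, and whether reads were divided between them was not tested.

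**Figure D1:**
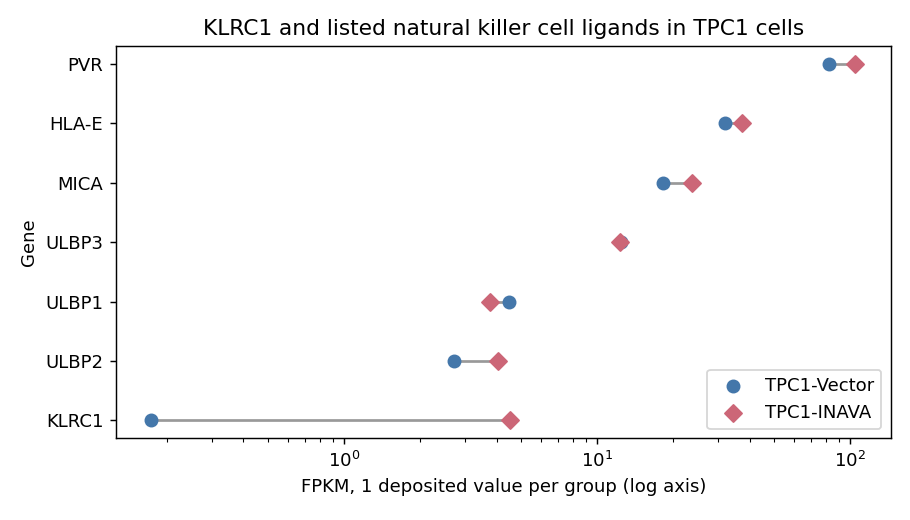
Expression of KLRC1 and the 6 listed ligands in TPC1-Vector (circles) and TPC1-INAVA (diamonds), in FPKM on a log axis, with 1 deposited value per group and no error bars. KLRC1 moves from 0.173 to 4.53 FPKM, while the ratios of the ligands lie between 0.844 and 1.496.

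The ligand of NKG2A differed little between the groups. HLA-E, which presents leader peptides of other class I molecules, was at 31.99 FPKM in the vector cells and 37.3 FPKM in the INAVA cells, a ratio of 1.16 and a log2 difference of 0.22. A larger difference was found for 14.0% of the genes past the filter. KLRC1 RNA thus amounted to 0.541% of HLA-E RNA in the vector cells and 12.2% in the INAVA cells, per length of transcript. HLA-E was listed on the alternate contig chr6_GL000256v2_alt (1790175 to 1794974). GENCODE places it on the primary assembly at chr6:30489467-30494205. It shared 5.76% of its windows of 50 bases with other genes, the most with HLA-G. Windows were compared between genes only, so copies of the same gene on alternate contigs were not counted, for HLA-E or for MICA.

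HLA-B, HLA-C and HLA-F, other class I heavy chain genes, had larger differences than HLA-E. The 4 heavy chain genes analysed here, HLA-E among them, lay above 0, with a median log2 difference of 0.48. Of the 4, 1 passed the fold, beside 2.24% of all genes higher, and a single gene is no result about the list. HLA-B was at 30.1 FPKM in the vector cells and 66.8 FPKM in the INAVA cells, a log2 difference of 1.14. HLA-C, at 57.0 and 84.7 FPKM, came close to the fold with 0.57. HLA-F was at 2.18 and 3.04 FPKM, a log2 difference of 0.40, and HLA-G was not listed. These genes are highly polymorphic and alike in sequence, so reads may be divided among them, and the part of this in their values was not tested.

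Of the genes that load HLA-E with peptide, all 12 of the list were listed, and the median log2 difference was 0.04. Of these 12, 0 passed the fold in either direction, which is near the background of 2.24% higher and 1.45% lower and is no result about the list. The same holds for every other list with 0 genes past the fold. The light chain gene B2M was at 663 and 750 FPKM, and the chaperone gene CALR at 535 and 560 FPKM. TAPBP, which encodes tapasin, a chaperone of peptide loading, had the highest log2 difference of the list, 0.32.

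Among the ligands of NKG2D, MICA and ULBP2 were higher, ULBP1 was lower and ULBP3 was level. None of them passed the fold. MICA was at 18.2 FPKM in the vector cells and 23.6 FPKM in the INAVA cells, a ratio of 1.30 and a log2 difference of 0.37. A larger difference was found for 5.96% of the genes past the filter. The listed interval of MICA, on the same alternate contig as HLA-E, spanned 108350 bp (2702061 to 2810410). In GENCODE the MICA gene takes up 15532 bp (chr6:31399784-31415315), and 111341 bp lie between the start of MICA and the end of MICB (chr6:31494881-31511124). The listed interval was thus about as long as the stretch that holds both genes, and MICB was not listed. Whether MICB reads entered the MICA value was not tested. MICA and MICB were 92.1% identical over their aligned coding bases.

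ULBP2 (chr6:149941938-149949232) was at 2.71 FPKM in the vector cells and 4.05 FPKM in the INAVA cells. Its ratio of deposited values, 1.496, was the largest of the ligands, and its log2 difference of 0.50 fell short of the 0.58 that marks the fold. A larger difference was found for 3.08% of the genes past the filter. ULBP1 (chr6:149964007-149973711) was at 4.47 and 3.77 FPKM, a log2 difference of -0.22, and 12.7% of the genes had a smaller one. ULBP3 (chr6:150064607-150069066) was at 12.5 and 12.3 FPKM, a log2 difference of -0.02.

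The order of the weaker ligands therefore turned: ULBP2 was at 0.605 times the level of ULBP1 in TPC1-Vector and at 1.07 times in TPC1-INAVA, without a spread against which to judge it. The summed level of the 4 listed NKG2D ligands among the chosen genes was 37.8 FPKM in the vector cells and 43.8 FPKM in the INAVA cells, a ratio of 1.16. MICA made up 48.1% of this sum in the vector cells and 54.0% in the INAVA cells. The wider list of NKG2D ligands added RAET1E, at 0.755 and 0.547 FPKM, a log2 difference of -0.26, while RAET1G and RAET1L were not listed. Over the 5 listed genes of that list the median log2 difference was -0.02, with 0 past the fold.

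ULBP2 was the ligand with the most sequence in common with other genes. It shared 32.2% of its windows of 50 bases with other genes, and 29.4% of its windows occurred in RAET1L, a neighbouring gene of the same family. ULBP3 shared 12.4% and ULBP1 6.85%, mostly with RAET1K. Their coding sequences were farther apart than those of the MIC genes, from 74.2% identity for ULBP2 and ULBP3 to 77.7% for ULBP1 and ULBP2. MICA, MICB and PVR shared at most 3.17% of their windows of 50 bases and at most 0.620% of those of 100 bases.

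**Figure D2:**
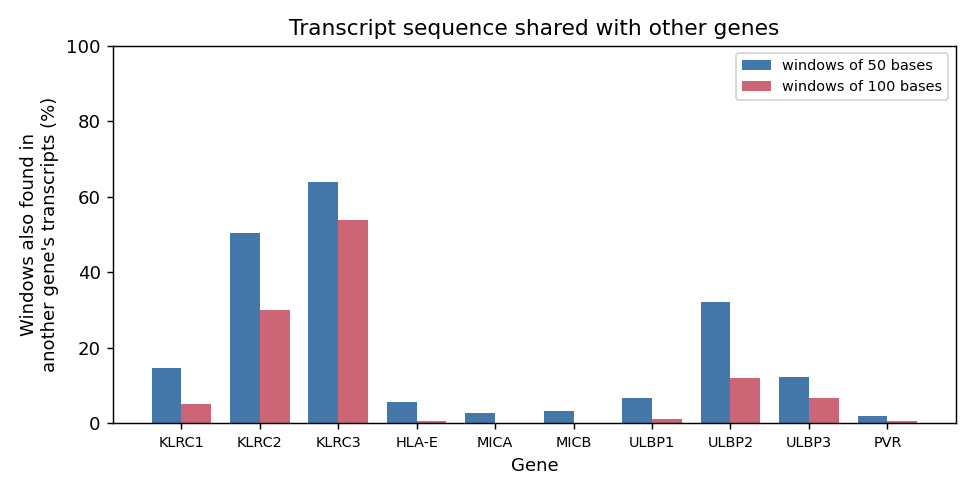
Share of sequence windows along each gene's GENCODE transcripts that also occur in transcripts of another gene, in percent, for windows of 50 bases (blue) and 100 bases (red). KLRC2 and KLRC3 share 50.3% and 63.9% of windows of 50 bases, KLRC1 14.7% and ULBP2 32.2%, and HLA-E, MICA, MICB, ULBP1 and PVR stay under 7%.

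PVR (chr19:44643798-44666160) was the most abundant of the chosen genes in both groups. It was at 82.4 FPKM in the vector cells and 105 FPKM in the INAVA cells, a ratio of 1.27 and a log2 difference of 0.34. A larger difference was found for 6.79% of the genes past the filter. PVR stood at 2.58 times the level of HLA-E in the vector cells and 2.81 times in the INAVA cells. Its relatives went different ways. PVRL2 (nectin-2), which DNAM-1 also binds, was at 46.9 and 54.4 FPKM, a log2 difference of 0.21. PVRL3 (nectin-3), which TIGIT binds, was at 41.6 and 33.6 FPKM, a log2 difference of -0.30. PVRL1 (nectin-1), a ligand of CD96, was at 15.2 and 15.6 FPKM. Over these 4 genes the median was 0.12, with 0 past the fold.

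Taking the listed genes together, 1 of 7 was past the fold, KLRC1, which was chosen for it, and 0 of the 6 listed ligands was. With 2.24% of all genes higher and 1.45% lower past the fold, 0 of 6 is near the background and is no result about the ligands. Of the 6 ligands, 4 lay above 0 and 2 below, beside 6256 of 12305 genes above 0. The median log2 difference of the ligands was 0.28, beside 0.0033 over all genes. Among genes with a mean from 0.5 to 5 FPKM, where KLRC1, ULBP1 and ULBP2 lie, 4.43% of 3721 genes were higher past it and 2.47% lower. The 5th and 95th percentiles of all genes were -0.38 and 0.40, and ULBP2 was the one ligand beyond them. In order of level the ligands ran from PVR through HLA-E, MICA and ULBP3 in both groups, with ULBP1 and ULBP2 last. With no spread for any value, it cannot be said which neighbours in this order differ.

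**Figure D3:**
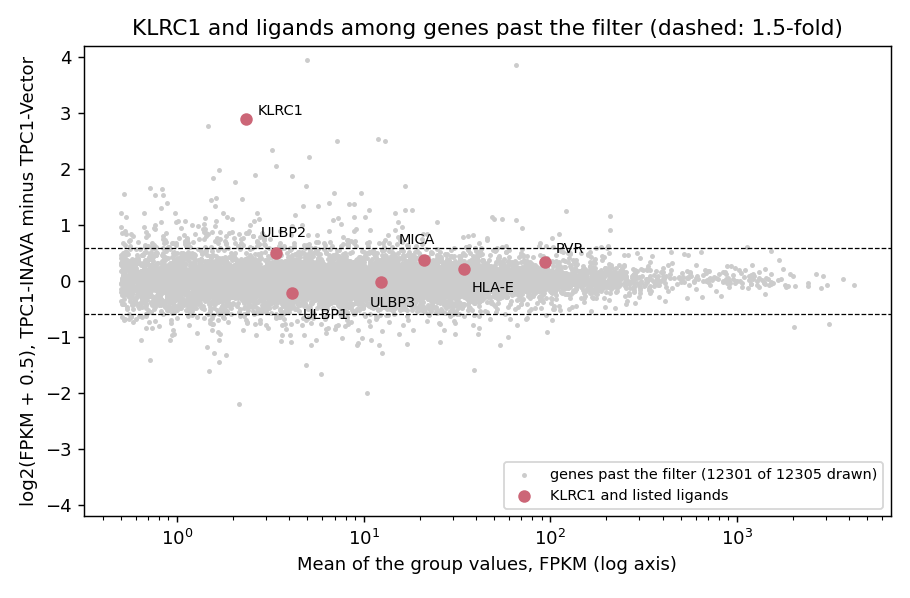
Log2 difference of FPKM + 0.5, TPC1-INAVA minus TPC1-Vector, against the mean FPKM of the groups (log axis), for genes past the filter (grey) and for KLRC1 and the listed ligands (red), with dashed lines at 1.5-fold and 4 genes beyond the drawn range of 4.2. KLRC1 at 2.90 stands above nearly all genes, and the ligands lie between -0.22 and 0.50, inside the dashed lines.

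Genes that act around these receptors and ligands were counted from lists of the pathway. Among ligands of the natural cytotoxicity receptors and of C-type lectin receptors, 4 genes passed the filter, 0 passed the fold, and the median log2 difference was 0.16. BAG6, a ligand of NKp30, was at 47.3 and 50.3 FPKM, and CLEC2B (AICL), a ligand of NKp80, at 2.09 and 2.56 FPKM. PDGFD, which encodes a growth factor bound by NKp44, had the largest difference of the list, at 0.821 and 1.35 FPKM, a log2 difference of 0.49. With 0.1 FPKM added or none, 1 gene of the list passed the fold. Among 5 proteases and helpers that shed ligands from the cell surface, 0 passed the fold and the median was 0.07. Of these 5 genes, 3 lay above 0 and 2 below. The disulfide isomerase gene PDIA6 (187 and 198 FPKM) and the metalloproteinase genes ADAM9 (114 and 120 FPKM) and MMP14 (65.5 and 83.7 FPKM) lay above 0. ADAM10 (48.2 and 38.0 FPKM) was among those below 0.

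Among checkpoint and other inhibitory ligands, 1 of 6 genes passed the fold, beside 2.24% of all genes higher. Among all genes with a mean from 0.5 to 5 FPKM, where this gene lies, the share was 4.43%. A single gene in so short a list is no result about the list. CD274, which encodes PD-L1, was at 1.09 FPKM in the vector cells and 2.12 FPKM in the INAVA cells, a log2 difference of 0.72. The median of that list was 0.13. The gene of the second PD-1 ligand, PDCD1LG2, was at 0.863 and 1.30 FPKM, a log2 difference of 0.40, and CD276 (B7-H3) was at 39.7 and 36.0 FPKM. With 1 FPKM added in place of 0.5, CD274 no longer passed the fold.

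Of 9 cytokine and chemokine genes that act on natural killer cells, 1 passed the fold, and the median was 0.02. Beside 2.24% of all genes higher, a single gene of 9 is again no result about the list. CCL2, a chemokine that draws monocytes and natural killer cells, was at 8.67 and 20.8 FPKM, a log2 difference of 1.22. IL15, the survival cytokine of natural killer cells, was at 3.35 and 2.37 FPKM, a log2 difference of -0.42. TGFB1, an inhibitor of natural killer cells, was at 32.4 and 32.3 FPKM. The interferon-induced chemokine genes CXCL9, CXCL10 and CXCL11 were not listed.

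Death receptors and adhesion molecules were counted in the same way. The death receptor list also holds the signalling genes TRADD, FADD, CASP8 and CFLAR. All 8 of its genes were listed, and 0 passed the fold, near the background of 2.24% and 1.45%, with a median of 0.08. TNFRSF10B, a receptor of TRAIL, was at 82.6 and 93.1 FPKM, TNFRSF1A, a receptor of TNF, at 61.7 and 57.8 FPKM, and FAS at 22.1 and 24.7 FPKM. Of 12 adhesion and costimulation genes, 5 were listed and 0 passed the fold, with a median of 0.01. CD59, an inhibitor of complement, was at 26.1 and 31.1 FPKM, and TNFSF9 (4-1BB ligand) was at 29.9 and 25.9 FPKM.

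**Figure D4:**
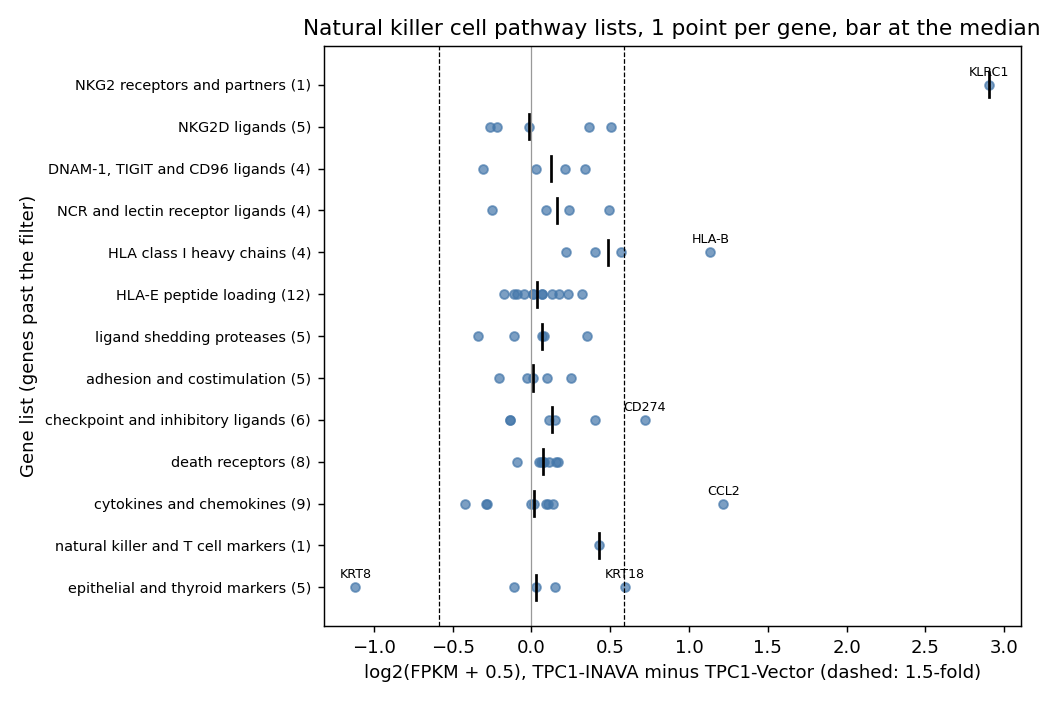
Log2 difference of FPKM + 0.5, TPC1-INAVA minus TPC1-Vector, for each gene of 13 lists (1 point per gene past the filter, black bar at the list's median, dashed lines at 1.5-fold). Beside KLRC1, the genes past the fold are HLA-B, CD274, CCL2, KRT18 and, on the lower side, KRT8.

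None of the listed genes around KLRC1 on chromosome 12 had a log2 difference as large. Within 300 kb, 7 other genes were listed, 5 passed the filter and 0 passed the fold. The median was 0.20, beside 0.0033 over all genes, with a range from -0.14 to 0.47, and all 7 except STYK1 lay above 0. With 2.24% of all genes higher and 1.45% lower past the fold, 0 of 5 is near the background and is no result about the neighbours. To one side lay KLRD1, at a gap of 125 kb, GABARAPL1, an autophagy gene (5.06 and 5.90 FPKM), and OLR1, a scavenger receptor gene (0.234 and 0.310 FPKM). To the other side lay the Ly49-related pseudogene KLRAP1 (0.951 and 1.36 FPKM), MAGOHB, of the exon junction complex (7.84 and 8.42 FPKM), the kinase-like gene STYK1 (0.681 and 0.569 FPKM) and YBX3. YBX3, which binds RNA and DNA, was at 73.7 FPKM in the vector cells and 102 FPKM in the INAVA cells, the highest log2 difference of the neighbours. Within 1000 kb on the same listed contig, 11 genes were listed, 9 passed the filter and 0 passed the fold, again near the background, with a median of 0.10. PRR4, which had a larger ratio than KLRC1, is annotated 391 kb from it, with a length of 3627 bp. The deposited values list PRR4 on an alternate contig instead, over a far longer interval (44555 to 370959). PRR4 was therefore left out of these counts, which cover only genes listed on the contig of KLRC1. Its log2 difference of 1.55 was past the fold.

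**Figure D5:**
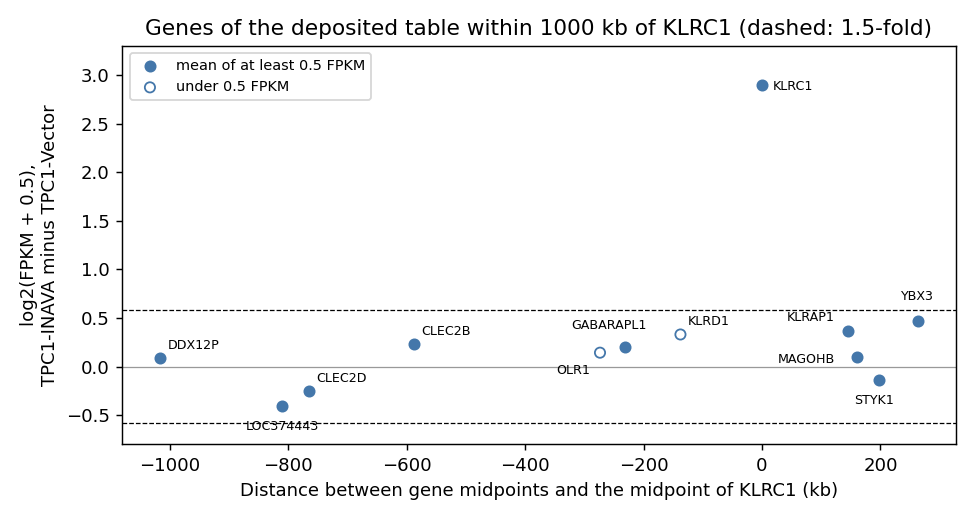
Log2 difference of FPKM + 0.5, TPC1-INAVA minus TPC1-Vector, against the distance in kb between each listed gene's midpoint and that of KLRC1, for genes within 1000 kb (filled, mean of at least 0.5 FPKM, open, under it, dashed lines at 1.5-fold). KLRC1 is at 2.90, and the other 11 genes, all listed on the same contig, lie between -0.41 and 0.47. PRR4, listed on an alternate contig, is not drawn.

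The start regions of the receptor and ligand genes differ in base composition, which is shown for KLRC1 and for ULBP2, the ligand with the largest ratio. The 250 bases before each start site were taken from RefSeq on GRCh38.p14, with CpG in capitals. RefSeq gave 3 start sites for KLRC1, and the most upstream one is printed. Which start was used in these cells is not shown by a value per gene.
KLRC1 (chr12:10454686-10454935, minus strand): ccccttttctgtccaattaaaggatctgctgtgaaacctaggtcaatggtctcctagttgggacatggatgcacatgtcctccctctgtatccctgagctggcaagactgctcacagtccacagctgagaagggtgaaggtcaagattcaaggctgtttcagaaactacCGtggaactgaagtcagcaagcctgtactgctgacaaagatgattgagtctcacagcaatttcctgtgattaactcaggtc
ULBP2 (chr6:149941764-149942013, plus strand): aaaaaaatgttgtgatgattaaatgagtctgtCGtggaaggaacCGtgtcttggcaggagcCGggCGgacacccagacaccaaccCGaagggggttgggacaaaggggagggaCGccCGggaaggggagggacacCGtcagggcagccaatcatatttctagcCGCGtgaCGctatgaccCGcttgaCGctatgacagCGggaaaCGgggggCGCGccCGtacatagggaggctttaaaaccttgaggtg

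In windows of 300 bases, which add 50 bases after the start, the 3 KLRC1 starts held 3, 0 and 1 CpG and KLRC3 held 1. ULBP2 held 19, MICB 20, MICA 21, ULBP1 26, and ULBP3 and PVR 27 each. Over 35116 RefSeq promoters the median was 14, with quartiles at 4 and 28, so the receptor starts lay below the lower quartile and the ligand starts between the median and the upper quartile. HLA-E and KLRC2 had no entry, and 8 of the 10 genes were matched.

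Short motifs were searched on both strands of the same windows. A heat shock element, GAANNTTC, was found in MICA and in MICB, at -135 and -139 from the start, and in no other of these genes, beside 6.77% of all promoters. An AP-1 site, TGANTCA, was found in 1 of the KLRC1 windows, in ULBP2 and in ULBP3, beside 7.71% of all promoters. In ULBP2 and ULBP3 it began at -2 and -6 from the start. In KLRC1 it began at 8, after the start, in a window other than that of the printed start. The letters of a TATA box, TATAAA, were found in ULBP1 and KLRC3, beside 11.5% of all promoters. In ULBP1 no match lay wholly within the 250 bases before the start. These matches describe the letters of the windows and are not measurements of binding.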

How the data were processed

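RNA of TPC1-Vector and TPC1-INAVA cells was sequenced in 4 libraries, 2 per group. The library kit is NEBNext Ultra per the labels and a VAHTS kit in the study's methods. What the authors deposited is a table of FPKM, with 1 value for each gene in each group. The submitters' processing notes name hg38, CASAVA, Cuffdiff and Cufflinks 2.1.1. The aligner and annotation are not given in the sources used here. The table's log2 ratio, p-value and q-value columns hold the authors' own comparison and were not used. Depth is unknown, so no counting error can be given.

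Here, log2(FPKM + 0.5) was subtracted between the groups for genes whose mean reached 0.5 FPKM, and genes at least 1.5-fold apart were counted. The calculation was tested on simulated data, with 2-fold changes planted in genes at 5 FPKM or more in TPC1-Vector. KLRC1, ULBP1 and ULBP2 lay below that level, which the simulation did not cover. limma was planned for values per library and was not run. The members and the 13 lists were chosen with earlier results of these data known. The named genes are the members, C1orf106, each list's genes past the fold or otherwise up to 4 of its genes, led by the 2 with the highest level, genes within 300 kb of KLRC1, and those next to KLRC1 by ratio. Genes left out of the class I and thyroid lists are not reported here. Others named were chosen after their values were seen. Shared windows, coding identity and motifs were computed from GENCODE release 29 and RefSeq promoters. Alternatives were other pseudocounts, filters, folds and scalings. Python 3.11.15, numpy 2.4.6, pandas 2.3.3, biopython 1.88 and matplotlib 3.10.9 were used.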

Additional observations from a re-analysis of the deposited data

How the results depend on the processing

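Under every pseudocount, filter, fold and scaling run, KLRC1 was past the fold and none of the 6 listed ligands among the chosen genes was. KLRC1 was chosen for its rise, so its place past the fold follows from that choice and supports nothing. Of 285 values under alternatives over 38 results, 269 were labelled the same, 16 moved and 0 were reversed. The label of same allowed some change. Genes higher past the fold, 276 in the main setting, kept it at 376 with 0.1 FPKM added, 411 with none and 201 with 1 FPKM. KLRC1 was labelled moved by the size of its difference, although it stayed higher past the fold. Many values labelled the same were list counts that stayed at 0, so the total of 269 says little about the measured differences. Since a pseudocount shrinks weak genes by construction, the log2 difference of KLRC1, 2.90, became 4.08 with 0.1 FPKM added, 2.24 with 1 FPKM and 4.71 with none. Among genes above 0 in the vector cells, its rank was 6 with 1 FPKM added, against 3. At 2-fold, 75 genes were higher and 30 lower, against 276 and 179 at 1.5-fold, and the lower genes numbered 289 with 0.1 FPKM added and 329 with none. Checkpoint ligands past the fold numbered 0 with 1 FPKM added, 2 with none and 0 at 2-fold, against 1. Higher epithelial and thyroid markers numbered 0 after quantile normalization and at 2-fold, against 1. Natural cytotoxicity and lectin receptor ligands past the fold numbered 1 with 0.1 FPKM added and 1 with none, and natural killer and T cell markers 1 with none, against 0. No paired analysis was possible because the table gives 1 value per group, and for the same reason leaving out a library and limma were not run.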
